A study of Homo sapiens with 12 samples.

Results

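Colony-stimulating factors and lymphocyte-directed cytokines are secreted proteins that steer the formation, survival and activation of myeloid cells and lymphocytes. The group described here was chosen by gene name, with earlier results of these data known, and has 10 members, CSF1, CSF2, CSF3, IL7, IL15, IL23A, EBI3, IL32, TSLP and IL12A. Every non-control probe that carries one of these names was taken, which gives 10 of the 25992 gene names on the array and 15 probes.

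On 12 one-color Agilent arrays, RNA was read from human proximal tubular cells of the lines HK-2 or RPTEC/TERT1, as labeled, that were starved for 24 h and then kept for 24 h without treatment, with IL-1β at 10 ng/mL, or with the SGLT2 inhibitor empagliflozin (Empa) at 500 nM. The titles name RPTEC for 6 arrays, which the study calls RPTEC/TERT1, although a source field of the deposit says HK-2 throughout. Each slide holds the control, IL-1β and Empa arrays of 1 line and 1 replicate. The 6 groups are HK-2 control, HK-2 IL-1β, HK-2 Empa and the same 3 for RPTEC/TERT1, with 2 arrays each.

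Colony-stimulating factors act on progenitors and on mature myeloid cells, and proximal tubular cells are a known source of several of them in injured kidney. IL-23 and IL-12 are pairs of subunits, in which the product of IL23A or IL12A joins a partner chain, and EBI3 is likewise a partner chain of IL-27 and IL-35. IL-7, IL-15 and TSLP act mainly on lymphocytes and dendritic cells. The published study lists CSF1 and EBI3 among genes it picked on these same arrays, so their values here are no independent evidence.

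Before any result, the line labels need a caution. On 15324 probes with signal on every array, the HK-2 control of replicate 1 correlated at 0.984 with the RPTEC/TERT1 control of replicate 2. The HK-2 control of replicate 2 correlated at 0.973 with the RPTEC/TERT1 control of replicate 1. Arrays that share a label correlated less, at 0.88 for HK-2 and 0.875 for RPTEC/TERT1. PAX2, a renal epithelial transcription factor, read 4100 units on the HK-2 control of replicate 1 and 4159 on the RPTEC/TERT1 control of replicate 2, and was not well above background on the other controls. CDH6, a kidney cadherin, had the opposite order, with 2060 units on the HK-2 control of replicate 2 and 3653 on the RPTEC/TERT1 control of replicate 1, against 44.1 and 44.5 on the others. Of 11 proximal tubule markers, 9 were well above background on any array and 5 on all 12, LRP2 among them, while SLC22A6 and HNF4A were on none. The control arrays thus go against the line labels, and the labels were kept as deposited. In what follows, the first pair of slides is HK-2 replicate 1 with RPTEC/TERT1 replicate 2. The second pair is HK-2 replicate 2 with RPTEC/TERT1 replicate 1. Values of a pair are given with the HK-2 slide first. A mean over the arrays of 1 label therefore mixes the pairs, and so does every line-wise test.

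Signals are given in units scaled to a common 75th percentile of 419, and folds compare a treated array with the control of its own slide. Where 1 side of a comparison was not well above background, the fold is an approximate lower bound, written "at least". It divides the brighter signal by the dimmer array's own signal or by the lowest signal well above background on that array, whichever is larger. Tests come from limma on 15717 genes, first with the 6 groups alone and then with a block per slide. Arrays of a slide deviated together from their group means (r 0.627 to 0.895), but with 2 arrays per group this cannot be told apart from the mixing of unlike slides under 1 label. Another fit has the same block and 1 effect per treatment over the 4 slides. A gene counts as called at an adjusted p under 0.05, and p-values measure only the spread between these arrays. With 2 arrays per group, the precision of every estimate is limited. The arrays read RNA of whole cultures of a cell line, so a change in every cell and a change in some of the cells cannot be told apart.

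Among the members, 8 of 10 had a probe that passed the detection filter and were tested. TSLP and IL12A were not tested. CSF2, CSF3 and EBI3 passed the filter only through their IL-1β groups, where they are high, so they had to differ, and their calls below are a description and no support for a response. In the fit without block, IL-1β changed 8 of 15717 genes (0.0509%), 5 higher (0.0318%) and 3 lower (0.0191%), and 0 members by limma. Named after their values were seen, the higher ones are PIM2, ZC3H12A, SCG5, MIR146A and FCAMR, and the lower ones SLC27A2, LINC00965 and ZDHHC8P1. At unadjusted p under 0.05 that fit has 1199 genes, 4 of them members, and the t-test has 657 genes and 0 members in HK-2 and 417 genes and 0 members in RPTEC/TERT1. With the block per slide, 864 genes (5.50%) were called, 318 higher (2.02%) and 546 lower (3.47%), and 2 members, CSF2 and CSF3, were among the higher ones. With 1 effect per treatment the count was 1955 genes (12.4%), of which 1244 were lower (7.91%) and the higher ones made up 4.52% of genes tested, and the same 2 members were called.

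**Figure D1:**
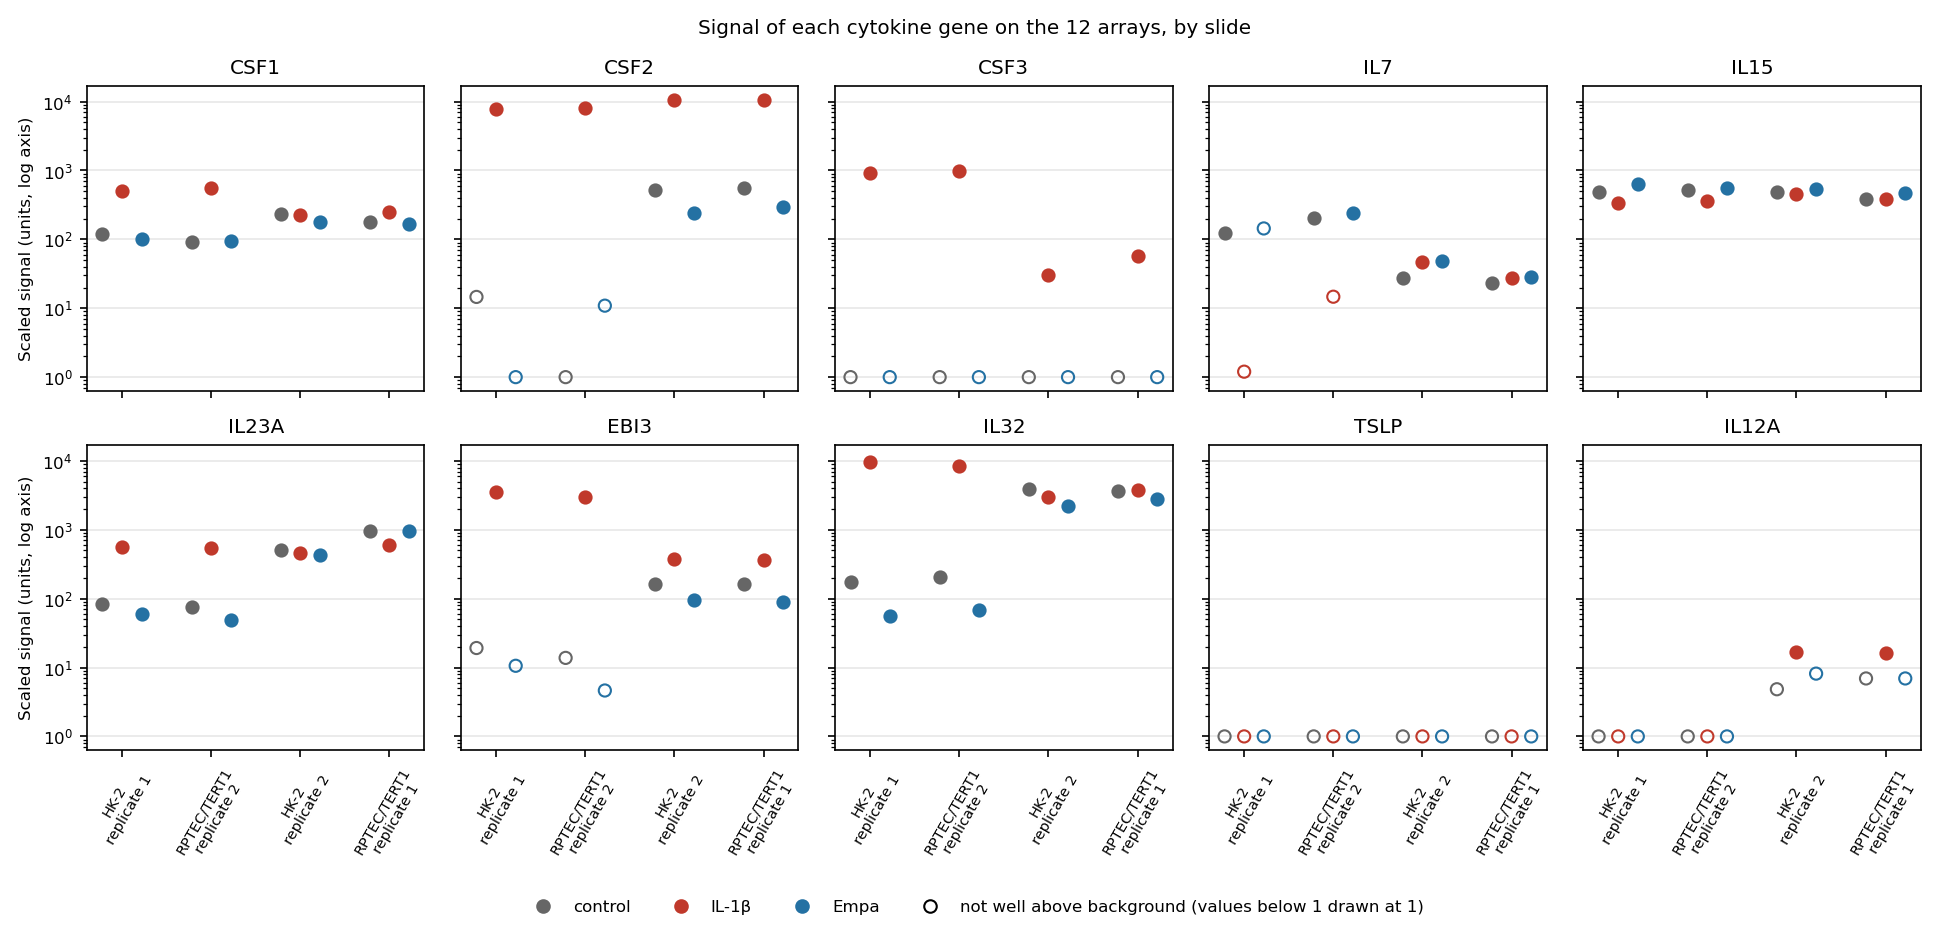
Scaled signal of each member on the 12 arrays, with arrays grouped by slide. Open marks are spots not well above background.

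The promoter table gives the 250 bases before the start for 6 of the 10 members, in GRCh38.p14 RefSeq coordinates. CSF1, CSF3, IL7 and IL15 have no entry. Among all 35116 promoters, 9.96% hold a match to the NF-κB motif, 6.57% to the AP-1 motif TGANTCA and 6.88% to the IRF motif. IL23A has an NF-κB match 95 to 86 bases and an AP-1 match 77 to 71 bases before the start. EBI3 has an NF-κB match at 214 to 205 and an AP-1 match at 118 to 112. In IL32, the first of its promoters has NF-κB matches on both strands that overlap, at 99 to 90 and 98 to 89, and the other has none. TSLP has an NF-κB match in 1 of 3 promoters, at 191 to 182, and IL12A has one at 44 to 35. CSF2 has no match to any of the 3 motifs. A match only describes the sequence, and binding was not measured. Shown are the tested members with an entry, so that the sequences stand beside their values. The sequences of CSF2 (chr5:132073539-132073788, plus strand), IL23A (chr12:56338634-56338883, plus strand), EBI3 (chr19:4229273-4229522, plus strand) and the first IL32 promoter (chr16:3065153-3065402, plus strand) follow, with motif matches in capitals.
CSF2: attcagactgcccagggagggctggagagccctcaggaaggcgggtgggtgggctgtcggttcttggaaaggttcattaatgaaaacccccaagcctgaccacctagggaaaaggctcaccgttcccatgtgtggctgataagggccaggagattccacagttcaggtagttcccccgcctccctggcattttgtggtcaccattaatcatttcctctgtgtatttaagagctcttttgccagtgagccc
IL23A: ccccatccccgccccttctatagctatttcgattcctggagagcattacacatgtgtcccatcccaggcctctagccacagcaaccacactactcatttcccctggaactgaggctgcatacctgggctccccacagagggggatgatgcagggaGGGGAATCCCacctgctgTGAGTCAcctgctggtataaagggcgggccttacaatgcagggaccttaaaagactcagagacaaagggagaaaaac
EBI3: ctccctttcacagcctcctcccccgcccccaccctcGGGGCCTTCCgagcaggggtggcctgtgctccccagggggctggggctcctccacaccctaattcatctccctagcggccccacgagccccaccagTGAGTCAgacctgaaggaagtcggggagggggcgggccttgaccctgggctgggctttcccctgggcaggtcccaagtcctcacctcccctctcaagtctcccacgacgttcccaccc
IL32: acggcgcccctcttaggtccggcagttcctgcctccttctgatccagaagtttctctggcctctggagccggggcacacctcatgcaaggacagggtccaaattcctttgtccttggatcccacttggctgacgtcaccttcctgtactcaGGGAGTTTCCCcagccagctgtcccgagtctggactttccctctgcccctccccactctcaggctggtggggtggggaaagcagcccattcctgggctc

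CSF2, the granulocyte-macrophage factor, was brightest with IL-1β on every slide. Its controls on the first pair read 14.6 and -1.70 units, neither well above background, and the IL-1β arrays read 7769 and 8079. The second-pair controls read 525 and 565 and the IL-1β arrays 10592 and 10447. All IL-1β arrays were thus far above all controls, with no overlap, and the second pair had a control signal that the first pair lacked. The folds were at least 532 and at least 960 on the first pair, and 20.2 and 18.5 on the second (log2 4.33 and 4.21). The mean log2 fold change was 7.65 with a standard error of 2.44 and an adjusted p of 0.438 without block. With the block the standard error was 1.52 and the adjusted p 0.0362, and with 1 effect per treatment it was 0.0123. CSF2 was thus called in these 2 fits with the slide block and not in the fit without, and it entered the test only through its IL-1β arrays. Without the slide of RPTEC/TERT1 replicate 2 the call was lost, at an adjusted p of 0.0705. Over all alternatives its adjusted p ran from 0.0079 to 1. Its log2 mean rests on first-pair controls not well above background, that of RPTEC/TERT1 set to the floor, so its size is not a measured one.

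CSF3, the granulocyte factor, was not well above background on any control or Empa array. Its brighter probe read 925 and 997 units with IL-1β on the first pair and 30.3 and 56.8 on the second. IL-1β arrays were the only arrays with signal, and the first pair was high where the second was low. The folds were at least 125 and at least 118 on the first pair, and at least 3.71 and at least 9.56 on the second. A second CSF3 probe read 130 and 145 on the IL-1β arrays of the first pair, at least 17.6-fold and at least 17.2-fold, and was not well above background on the second pair. The probes thus differ on the second pair, where only 1 of them has signal. The mean log2 fold change was 7.64, with an adjusted p of 0.0796 without block, 0.0108 with the block and 0.00133 with 1 effect per treatment. Every control sits at the floor, so 7.64 is not a measured size, and over all alternatives the value ran from 1.90 to 8.87 and the adjusted p from 0.00133 to 1. In the authors' table with the slide block CSF3 was not called, at 0.0784. CSF3 entered the test only through its IL-1β arrays, so these calls add nothing to the values above. Without HK-2 IL-1β replicate 2 it was called in the fit without block as well, at 0.0409.

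CSF1, the macrophage factor, has 3 probes for different transcripts. The tested probe read 120 and 90.1 units on the controls of the first pair and 507 and 552 with IL-1β. For the second pair these values were 237 and 176 on the controls and 224 and 247 with IL-1β. IL-1β arrays lay above the controls on the first pair, and on the second pair the groups overlapped. The folds were 4.24 and 6.13 on the first pair, and the log2 differences on the second were -0.08 and 0.49. Another CSF1 probe read 18.6 and 8.87 on the first-pair controls, the latter not well above background, against 462 and 408 with IL-1β. That is 24.9-fold and at least 46.0-fold, next to 1.03-fold and 1.53-fold on the second pair. The remaining CSF1 probe was well above background only on the IL-1β arrays of the first pair, at 25.3 and 18.8. All 3 probes were thus higher with IL-1β on the first pair, and they differ in the size of the difference. CSF1 had a mean log2 fold change of 1.28, with an adjusted p of 0.543 without block and 0.159 with it, so it was not called.

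**Figure D2:**
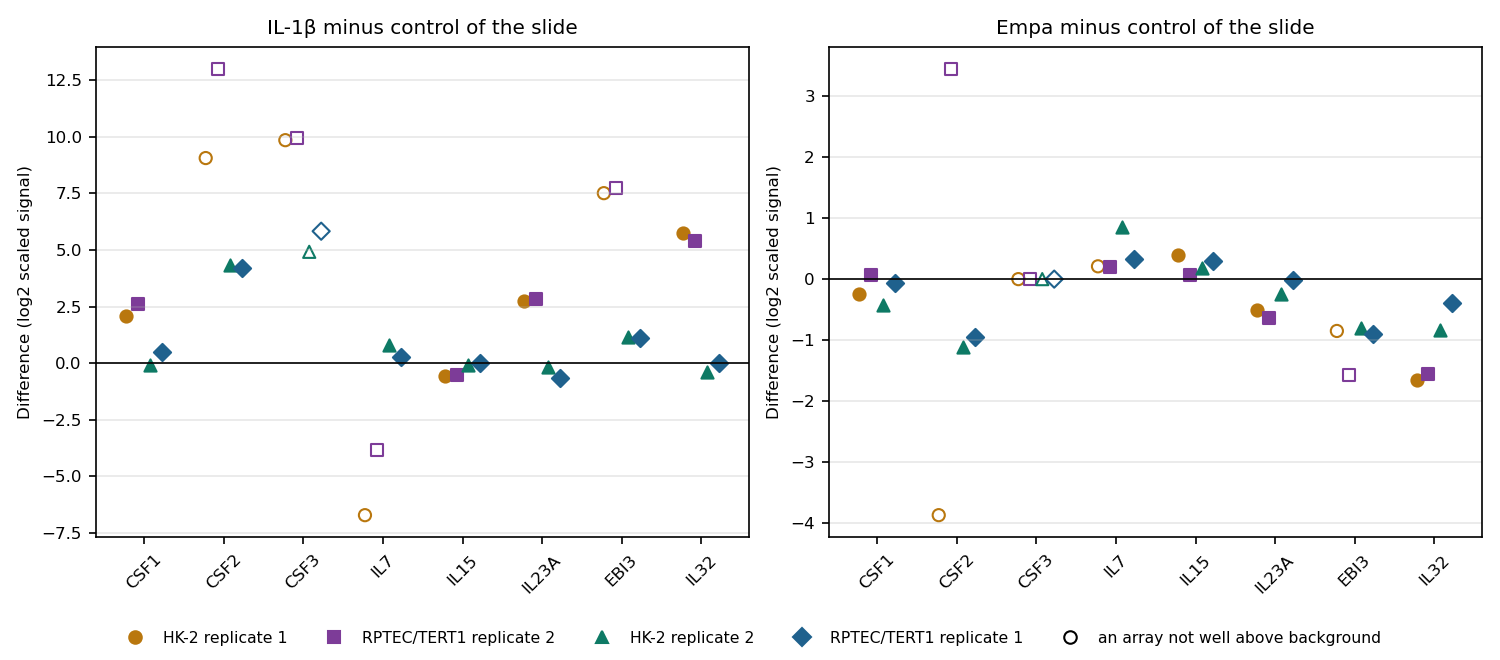
Log2 difference of each tested member between the treated array and the control array of the same slide. Open marks involve an array not well above background, so their height is not a measured size.

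IL23A encodes the chain that is specific to IL-23. On the first pair it read 84.7 and 76.7 units on the controls and 569 and 541 with IL-1β. Second-pair controls read 516 and 950 and the IL-1β arrays 466 and 602. The IL-1β arrays were high on the first pair and the controls low, whereas on the second pair the IL-1β arrays lay below their own controls. The folds on the first pair were 6.72 and 7.06. The log2 differences on the second pair were -0.15 and -0.66. IL23A, whose promoter above holds an NF-κB and an AP-1 match, had a mean log2 fold change of 1.19 and was not called, with an adjusted p of 0.998 without block and 0.384 with it. With single arrays left out of the fit without block, that mean ran from 0.28 to 2.10.

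EBI3, the shared chain of IL-27 and IL-35, is printed in 10 spots. Its first-pair controls read 19.2 and 13.8 units, neither well above background, and the IL-1β arrays read 3482 and 2944. The second-pair controls were both 165, and the IL-1β arrays read 371 and 358. All IL-1β arrays lay above all controls, and the first pair had the brighter IL-1β arrays. The folds were at least 182 and at least 213 on the first pair, and 2.24 and 2.16 on the second (log2 1.17 and 1.11). The mean log2 fold change was 4.38 with a standard error of 1.47. EBI3 was higher on all 4 slides, yet its adjusted p was 0.467 without block, 0.124 with the block and 0.0548 with 1 effect per treatment. Without the slide of RPTEC/TERT1 replicate 1 it was called in the last of these fits, with a log2 fold change of 5.47 and an adjusted p of 0.0484, the lowest of a range up to 1. Like CSF2, it entered the test only through its IL-1β arrays.

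IL32 encodes a cytokine without a close relative that acts on monocytes and lymphocytes. Its brighter probe read 176 and 204 units on the first-pair controls and 9602 and 8454 with IL-1β. In the second pair the controls read 3933 and 3674 and the IL-1β arrays 2973 and 3764. The first-pair controls were the low arrays here, and on the second pair control and IL-1β overlapped. The folds were 54.6 and 41.5 on the first pair, with 1.32-fold lower and 1.02-fold higher on the second. A second IL32 probe was 38.0-fold and 28.8-fold higher on the first pair, and it read 1802 and 1794 on the second-pair controls against 1361 and 1817 with IL-1β. For IL32 the mean log2 fold change was 2.69, with an adjusted p of 0.892 without block and 0.285 with it. With single arrays left out of the fit without block, the IL32 mean ran from 1.57 to 3.81.

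IL12A, which encodes a chain of IL-12, was well above background on 2 arrays only. These are the IL-1β arrays of the second pair, at 16.8 units in HK-2 and 16.4 in RPTEC/TERT1. Its folds there were at least 2.06 and at least 2.36, close to the detection limit. No other array had IL12A signal, and the gene was left out of the test.

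IL7, a survival factor for lymphocytes, went the other way on the first pair. Its controls there read 125 and 207 units, and the IL-1β arrays read 1.20 and 14.7, neither well above background. On the second pair the controls read 27.1 and 23.0 and the IL-1β arrays 47.7 and 27.6. Controls were thus the high arrays on the first pair and the low ones on the second. IL7 was lower with IL-1β by at least 14.1-fold on either slide of the first pair, and 1.76-fold and 1.20-fold higher on the second. A second IL7 probe was not well above background on any of the 12 arrays, so the 2 probes differ. The mean log2 fold change was -2.36, with an adjusted p of 0.823 without block and 0.308 with it. This mean rests in part on IL-1β arrays not well above background, so its size is not a measured one. Over all alternatives it ran from -3.69 to -0.33.

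IL15, which acts on natural killer and T cells, was well above background on all 12 arrays. It read 487 and 524 units on the first-pair controls and 333 and 364 with IL-1β. The second-pair controls read 483 and 389 and the IL-1β arrays 455 and 391. IL-1β arrays were lower than their controls on the first pair, and on the second pair they overlapped. The log2 differences were -0.55 and -0.53 on the first pair, then -0.09 and 0.01 on the second. Its mean log2 fold change of -0.29 was not called, at an adjusted p of 0.957 without block and 0.415 with it.

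TSLP, an epithelial cytokine that acts on dendritic cells, was not well above background on any of the 12 arrays. An absent signal on this array does not show that the transcript is absent.

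Looking across the slides, CSF2, CSF3 and EBI3 were higher with IL-1β on all 4, which 2362 genes were (15.0%). These are the 3 members that passed the filter through IL-1β alone, so nothing is read from that count. No member was lower with IL-1β on all 4 slides, against 3907 genes (24.9%). Within HK-2 alone, limma called 0 genes and 0 members without block, with 591 genes and 1 member at unadjusted p under 0.05, and the t-test counts given above. In RPTEC/TERT1 it called 0 genes and 0 members, with 449 genes and 3 members at unadjusted p under 0.05. The difference between the lines in the IL-1β effect gave 0 genes by limma, with 37 genes and 0 members at unadjusted p under 0.05, and since the labels mix the pairs it says little about either line.

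The genes most like each member were looked up over the 12 arrays, with each value centered on its slide. Among 15563 genes, those closest to CSF1 were PI3 (0.993), SERPINA1 and CHST4 (0.989 each), and those closest to CSF2 were AMD1 (0.986), SAA4 (0.985) and NSFL1C (0.983). CSF3 was closest to CXCL5 (0.999), SLC39A14 and CXCL2 (0.997 each). For EBI3 they were IL4I1 (0.998), VNN2 (0.997) and ICAM1 (0.996), and for IL32 CFB (0.993), CYB5R3 (0.992) and CTSC (0.990). IL23A had KDELR3 (0.991), HAPLN3 and LYPD1 (0.989 each) as its nearest genes. IL7 had FAM127C (0.986), LRRC34 (0.980) and C5orf24 (0.979), and IL15 had CHRNA5 (0.994), GINS2 and ZNF682 (0.993 each). These values describe 12 arrays on 4 slides and are given without a test. For CSF2, CSF3, EBI3 and IL7 they rest in part on arrays not well above background.

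**Figure D3:**
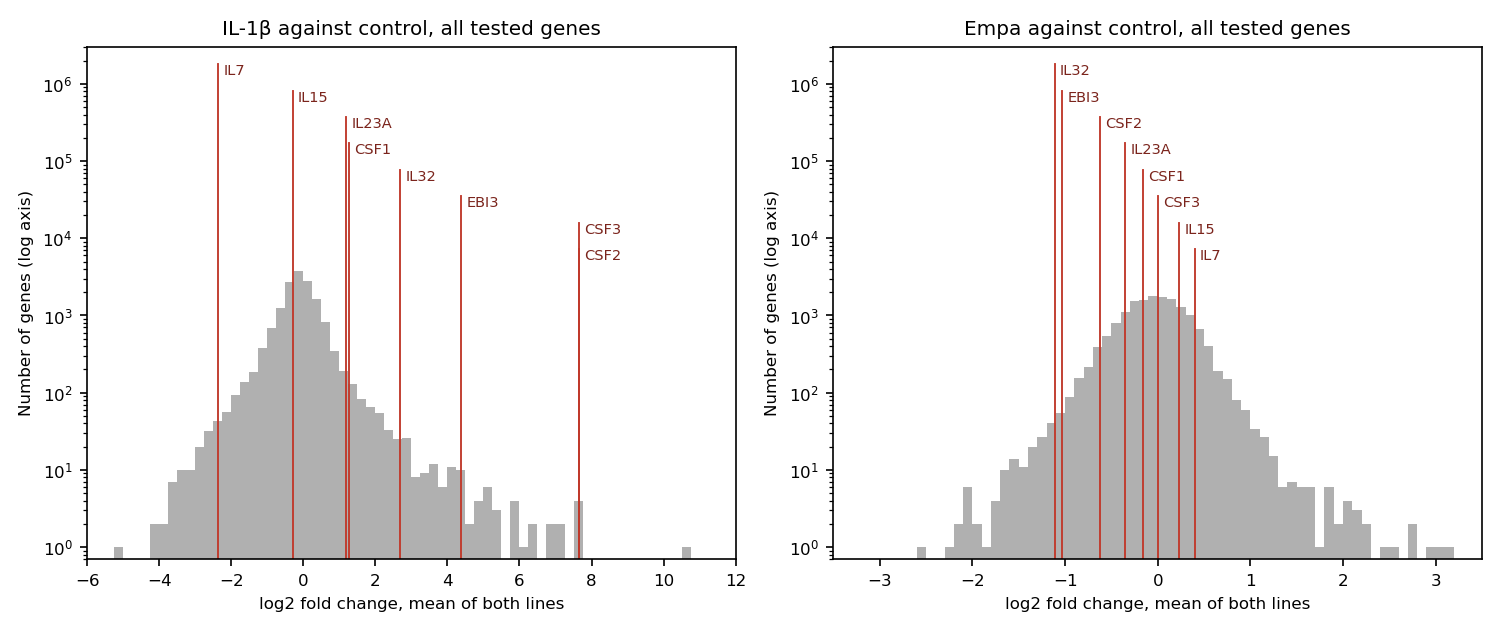
Log2 fold changes of all tested genes with the tested members marked, for IL-1β and for Empa. The height of a marker line has no meaning.

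Empa changed 0 of 15717 genes (0%) and 0 members by limma, without block and with it. At unadjusted p under 0.05 there were 205 genes and 0 members without block and 1444 genes and 0 members with it, and the t-test counts were 375 genes in HK-2 and 210 in RPTEC/TERT1. With 1 effect per treatment, 1 gene (0.00636%) was called, DHRS2, named after its value was seen, and 0 members.

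Of the members, IL32 had one of the larger differences with Empa. It read 55.6 and 69.3 units on the first pair, and 2191 and 2810 on the second. Each Empa array was below the control of its own slide, while Empa and control arrays of different pairs overlap widely. The log2 differences of IL32 were -1.66 and -1.56 on the first pair, and -0.84 and -0.39 on the second. Its second probe read 48.9 and 68.0 against controls of 104 and 116 on the first pair, and 966 and 1368 on the second, also lower each time. The mean log2 fold change of -1.11 had an adjusted p of 1 without block, and over the members the blocked values lay between 0.686 and 1. Leaving out single arrays in the fit without block, which then sets unlike slides against each other, moved the IL32 mean between -2.45 and 0.22, while the other alternatives gave -1.35 to -0.56.

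EBI3 was not well above background on the first-pair controls or Empa arrays, and read 94.9 and 88.4 units with Empa on the second pair. These lay below both controls of that pair, by log2 differences of -0.80 and -0.90. CSF2 behaved alike on the second pair, where Empa arrays read 242 and 291 units. Those are 2.17-fold and 1.94-fold below their controls (log2 -1.12 and -0.95). On the first pair CSF2 had no signal on control or Empa, so no fold exists. CSF2 was not called with Empa, and its mean over the slides is not read for the same reason.

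IL23A read 59.9 and 49.7 units with Empa on the first pair and 435 and 944 on the second. These were below the controls of the same slides, with log2 differences of -0.50, -0.63, -0.25 and -0.01. IL15 read 642 and 550 on the first pair and 547 and 474 on the second, above the controls of the same slides. Its log2 differences were 0.40 and 0.07, then 0.18 and 0.29, with a mean of 0.23. IL7 read 144 and 238 with Empa on the first pair, the former not well above background, and 49.0 and 28.8 on the second, all above the control of the slide. CSF1 read 101 and 94.8 on the first pair and 176 and 169 on the second, which overlaps the controls, and its mean was -0.16. CSF3 and TSLP had no signal with Empa, and neither had IL12A.

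IL23A, EBI3 and IL32 were thus lower with Empa on all 4 slides, as were 2188 genes (13.9%). IL7 and IL15 were higher on all 4, as were 1958 genes (12.5%). For EBI3 and IL7 these counts include differences with arrays not well above background. In HK-2 limma called 0 genes for Empa, with 198 genes at unadjusted p under 0.05, and in RPTEC/TERT1 0 genes, with 42.

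The receptors of the members comprise 14 genes, of which 10 were well above background on any array and 8 were tested. Of the 8 tested, 0 were called with IL-1β or Empa in either fit. CSF1R, the receptor of CSF1, read 203 and 257 units on the second-pair controls, 184 and 218 with IL-1β and 144 and 167 with Empa. It was not well above background on any first-pair array, so it separates the pairs. CSF3R was well above background on all 12 arrays, at 168 and 143 on the first-pair controls and 213 and 90.8 on the second-pair controls. With IL-1β, CSF3R read 137 and 252, then 115 and 86.7, which overlaps the controls. IL7R and CSF2RA had no signal on any array, nor had IL12RB2 and IL23R. For IL7, TSLP, CSF2, IL23A and IL12A, at least 1 receptor chain was therefore not seen on these arrays.

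**Figure D4:**
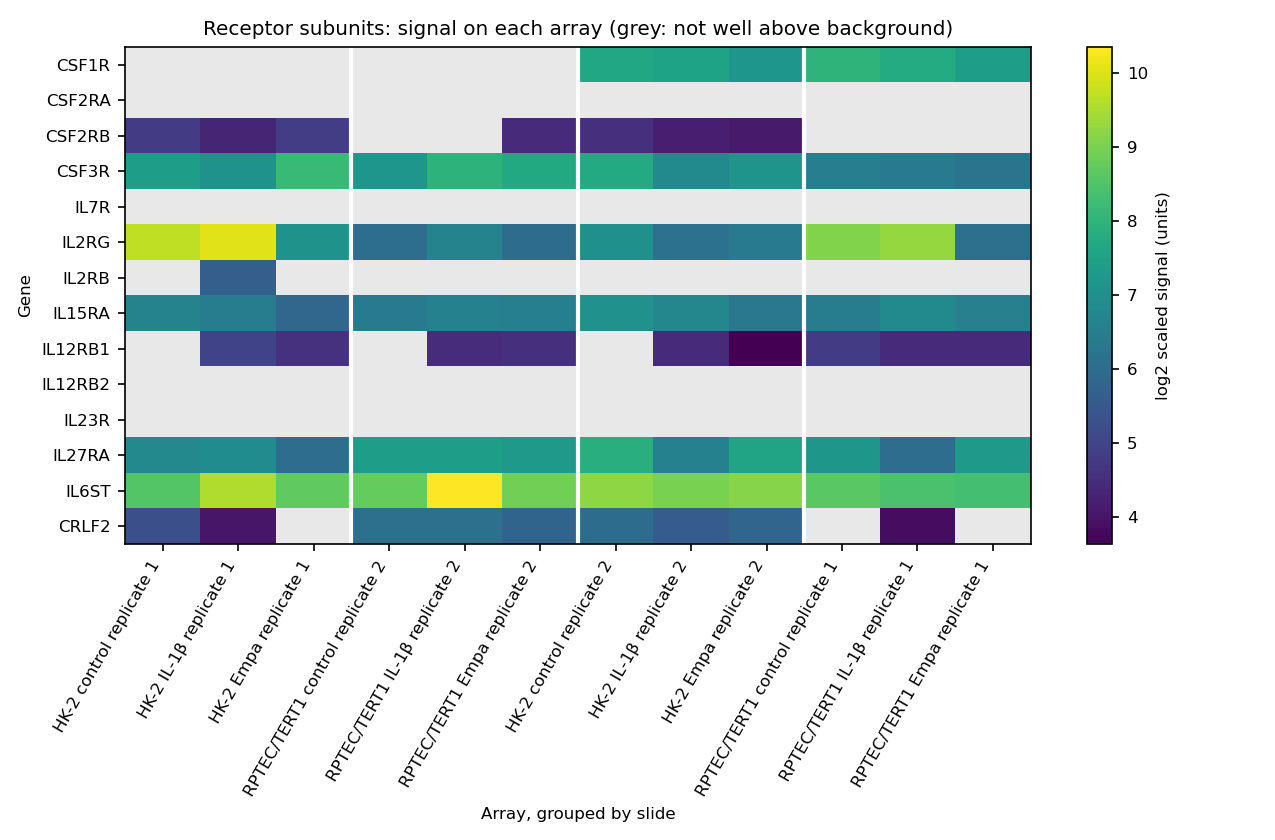
Scaled signal of the receptor genes on the 12 arrays, to be read within each gene. Grey cells are spots not well above background.

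IL15RA was well above background throughout, at 100 and 85.8 units on the first-pair controls and 132 and 88.3 on the second-pair controls. IL2RG, the common chain for IL-7 and IL-15, followed scan day on its control and IL-1β arrays. It read 836 and 541 on the controls of replicate 1, both read on the first scan day, against 128 and 66.6 on those of replicate 2. With IL-1β it read 1061 and 622 for replicate 1 against 70.6 and 100 for replicate 2, split like the controls. Its Empa arrays read 134 and 70.0 for replicate 1, low like the arrays of the second scan day. IL6ST, which pairs with receptors for EBI3-containing cytokines, read 754 and 1301 with IL-1β on the first pair against controls of 378 and 436. On the second pair IL6ST read 510 and 344 against 594 and 393, so the groups overlap and it was not called.

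Of 6 partner subunits and ligands that share a receptor with a member, only IL27 was tested, and it was not called. IL12B, the partner of IL23A and IL12A, was not well above background on any array. IL34, the other ligand of the CSF1 receptor, was likewise without signal, and so were IL2, IL3 and IL5. Of 23 other hematopoietic and lymphocyte-directed cytokines, 6 were tested. KITLG was called lower with IL-1β with the block only, with a log2 fold change of -1.92 and an adjusted p of 0.0271, against 0.664 without block.

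Of 15 JAK-STAT genes, 14 were tested, and 0 were called without block. With the block CISH fell with IL-1β (log2 fold change -1.81, adjusted p 0.0114, against 0.245 without block). SOCS2 also fell (-2.51, 0.00388, against 0.545). It was not well above background on the IL-1β array of RPTEC/TERT1 replicate 1, at 15.5 units, so the size of its mean is approximate. CISH read 520 and 337 units on the first-pair controls and 364 and 323 on the second-pair controls, with IL-1β arrays at 164 and 141, then 82.7 and 70.6, without overlap. Neither gene was called with Empa.

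As a control for the treatment, 10 genes known to respond to IL-1β were listed, 9 of them tested. All 9 were higher on 4 slides, against 15.0% of all genes, and 0 were called without block. CCL20, CCL2 and LCN2 entered the test only through their IL-1β arrays, so nothing is read from their direction or their calls. With the block 6 were called higher, CCL20, CXCL8, IL6, CXCL1, CCL2 and NFKBIA, against 2.02% of all genes. CXCL8 read 22.1 and 26.3 units on the first-pair controls, the latter not well above background, and 26236 and 24562 with IL-1β. On the second pair it read 771 and 1128 on the controls and 15522 and 14430 with IL-1β, a higher control and a smaller difference, the order also seen in CSF2 and EBI3. The list does not share this order of controls. CXCL1 read 385 and 301 on the first-pair controls, against 59.6 and 44.1 on the second. For CCL2 these values were 389 and 381, against 6.32 and 5.19, neither of the latter well above background.

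Leukocyte genes were looked at because several members act on leukocytes. PTPRC, the common leukocyte antigen, read between 20.9 and 83.3 units on the 12 arrays and was not called. Of 6 myeloid markers, 5 have a probe and LYZ has none under that name. Their summed signal was 428 and 121 units on the first-pair controls and 823 and 655 with IL-1β, against 1255 and 1204 on the second-pair controls and 897 and 1159 with IL-1β. Most of the first-pair IL-1β sum comes from CD68, a lysosomal protein, at 722 and 550 against controls of 122 and 121. On the HK-2 slide of that pair ITGAM and CD14 went the other way, at 58.3 against 211 units and 43.1 against 95.4. On the RPTEC/TERT1 slide CD14 read 48.7 and FCGR3A 35.2 with IL-1β, against controls not well above background, and ITGAM read 21.0 against 23.0, the latter not well above background. CSF1R had no signal on either slide. With IL-1β the list has no common direction on the HK-2 slide. With Empa, 2 of 3 tested myeloid genes were lower on all 4 slides, as were 13.9% of all genes. CD68 had log2 differences of -2.10 and -1.05 on the first pair, and -0.80 and -0.20 on the second. ITGAM had -2.07 and -0.01, the latter against a control not well above background, then -0.37 and -1.51. CD14 was lower with Empa only on the HK-2 slide of the first pair. Neither CD68 nor ITGAM was called with Empa. Of the 5 T cell markers 4 have a probe, and CD3D was well above background on 10 arrays, CD2 on 4, CD3E on 2 and CD3G on 1. The summed signal of these 4 was between 0 and 80.4 units, with CD3D at most 61.0. CD79A, which marks B cells, was well above background on all 12 arrays, at 390 to 2488 units, and MS4A1 on 1. The samples are cultures of proximal tubular cell lines, and the source of these signals was not tested.

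Scan day and replicate number coincide on these arrays. With scan day as the block, IL-1β changed 0 genes by limma, CSF2 had an adjusted p of 0.61 and CSF3 of 0.165. The arrays of the first scan day alone gave log2 fold changes of 6.63 for CSF2, 7.84 for CSF3 and 4.31 for EBI3. Those of the second alone gave 8.66, 7.44 and 4.45 for the same genes, and 0 genes were called on either day. All 3 rest in part on controls not well above background, so these values are not measured sizes.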

How the data were processed

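The spot files hold processed signals after the authors' Feature Extraction 9.5.3.1, and per the file headers each array is a one-color intensity. The deposited table holds log2 values with 44473 entries and served as an alternative. Control spots (1377 of 44495) were dropped, arrays were scaled to a common 75th percentile over all non-control spots, values were floored at 1 unit and turned to log2, and 1 probe per gene was tested. That percentile was adopted after the counts with and without outlier spots (8 and 7 genes) had been seen. Members and gene lists were chosen with earlier results of these data known, by gene name alone. Named are the members, at most 6 called genes per list, receptors by level and the 3 genes most alike to each tested member. Fits used limma 3.58.1 in R 4.3.3, with Python 3.11.15, numpy 2.4.6, pandas 2.3.3 and matplotlib 3.10.9, and the code was tested on simulated data. Pairing by replicate comes from the shared slide, and deviations shared within slides do not test it apart from the mixed labels. Alternatives were the slide block, scan day, normexp, the authors' table, filters, probe choice, outlier spots, the floor, leaving arrays out and a t-test.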

Additional observations from a re-analysis of the deposited data

How the results depend on the processing

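The replicate block raised the genes called for IL-1β from 8 to 864 and the members from 0 to 2, and in the single lines from 0 to 40 genes (HK-2) and 41 (RPTEC/TERT1). The block changed the call of no other member. A common effect per treatment gave 1955 genes and 2 members for IL-1β and 1 gene for Empa. Leaving a slide out of that fit gave 1084 genes and 2 members (no HK-2 replicate 1), 1140 and 3 (no RPTEC/TERT1 replicate 1), 445 and 1 (no RPTEC/TERT1 replicate 2), and 890 and 2 (no HK-2 replicate 2). CSF2 with Empa turned from -0.62 to 0.46 in the first of these.

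Other settings without the block moved the 8 genes for IL-1β to 0 with scan day as a block, 13 with normexp, 3 with the authors' table, 23 with no filter, 3 with signal on all 12 arrays, 13 with outlier spots kept and 18 with a floor of 5 units. The authors' table with the block gave 714 genes and 1 member, 22 genes in RPTEC/TERT1 and 1 in HK-2. No filter also gave 6 genes in HK-2, 5 in RPTEC/TERT1, 7 for the line difference, and for Empa 5 in the mean, 4 in RPTEC/TERT1, 3 in HK-2 and 1 for the line difference. Testing every probe gave 2 genes in HK-2, and the floor of 5 gave 1 in RPTEC/TERT1 and 3 in HK-2.

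Leaving out each array in turn gave 0 to 7 genes and 0 to 1 member for IL-1β, 0 to 1 gene in HK-2 and, for Empa, 0 to 1 gene in HK-2. A lone array left in a group is assumed to vary like the others. Log2 fold changes with Empa then ranged for CSF1 from -0.41 to 0.08, CSF2 -2.91 to 1.66, IL7 -0.40 to 1.19, IL23A -1.41 to 0.72, EBI3 -2.09 to 0.03 and IL32 -2.45 to 0.22. These fits lack the block and set unlike slides against each other. The other alternatives kept the sign of IL32 (-1.35 to -0.56) and IL23A (-0.46 to -0.10), and CSF2 with Empa rests on first-pair arrays without signal.

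Alternatives chosen after seeing the data were the percentile without outlier spots, with the block 855 genes and 2 members, 33 genes in RPTEC/TERT1 and 41 in HK-2, and single scan days, with 0 genes for IL-1β on day 1 and 0 on day 2, where CSF2 with Empa was 1.16. Of 252 member values for IL-1β, 236 kept call and direction, 16 passed the threshold and 0 reversed, and of 252 for Empa 21 reversed. The causes were not tested. Signal over background limits CSF3 on all 4 slides, and IL7, EBI3 and CSF2 on the first pair.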
